A study of Mus musculus with 4 samples.

Results

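Caveolae are flask-shaped pits of the plasma membrane, and the genes described here encode their structural proteins: the caveolins (Cav1, Cav2 and Cav3), the cavins (Cavin1, Cavin2, Cavin3 and Cavin4) and Plvap, the protein of the diaphragm across the neck of endothelial caveolae. They were chosen by name, with no measured value in the rule, and they are 8 of the 21755 protein-coding genes of the GENCODE annotation on chromosomes 1 to 19 and X. Cav1, Cav2, Cavin1, Cavin2, Cavin3 and Plvap (6 genes) are called here the endothelial paralogs and Plvap, and Cav3 and Cavin4 (2 genes) the muscle paralogs. The question was how open the chromatin of each gene is in cardiac endothelial nuclei compared with the other nuclei of the same hearts, and whether the endothelial genes differ in this from their muscle counterparts.

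The data were ATAC-Seq libraries, in which the transposase Tn5 inserts sequencing adapters into accessible DNA, from whole hearts of male mice aged 8 to 12 weeks on a C57BL/6 background. All animals carried NuTRAP, a reporter with GFP, and Cdh5-Cre, which switches it on in cells that express, or descend from cells that expressed, the endothelial cadherin gene Cdh5. Nuclei were sorted into GFP+ (endothelial, 2 samples) and GFP- (non-endothelial, 2 samples), and 100 to 50000 nuclei entered a reaction. Both populations therefore carry the same alleles and differ in the sort gate, GFP- nuclei are a mixture of all other heart cells, and GFP+ nuclei include whatever the gate passed.

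There was 1 deposited list of peaks per population, called from both replicates together, so no value has a replicate check and no test between the populations was made. The GFP- list held 78912 peaks (52.1 Mb in all, median length 469 bp) and the GFP+ list 65008 (41.8 Mb, median 459 bp). Each peak carries an area, a value that the peak caller summed over its length and that is not a count of reads, and no peak had an area under 200. Because the lists differ in length, peaks were ranked by area separately in each list, on a percentile scale from 0 for the smallest peak to 100 for the largest. A start peak is one that overlaps an annotated transcript start +/- 250 bp, a gene without one was set to 0, and a difference of more than 20 percentile points between the lists was counted as called. The depth of each library is unknown from these lists.

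The sort was visible in marker genes. Of 10 endothelial markers, 10 had a start peak in GFP+ and 6 in GFP- nuclei, with a median rank difference (GFP+ minus GFP-) of 59.6 points. Of 8 fibroblast markers, 7 had a start peak in GFP- and 3 in GFP+ nuclei (median difference -51.5). Of 10 cardiomyocyte markers, 9 had a start peak in each list, and 0 of them were called in either direction. Of 6 mural markers, which mark pericytes and smooth muscle, 6 had one in GFP- and 4 in GFP+ nuclei, and of 5 immune markers 1 had one in each. The part that carried-over nuclei of another type play in the values of these genes was not tested.

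In caveolae, caveolins insert into the inner leaflet of the membrane and oligomerise, and cavins assemble around them as a coat. Cav1 and Cav2 are abundant in endothelium, whose cells are rich in caveolae, while Cav3 and Cavin4 are the forms of striated muscle, including cardiomyocytes. Cavin1 is needed for caveolae in both settings.

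For orientation, the sequences that carry the main contrasts are printed first, each 200 bp on the strand of its gene, 5′ to 3′, from GRCm38.p6 (the mm10 assembly), taken from the RefSeq copy of that assembly. Capitals mark matches to any of 8 words, short consensus sequences of transcription factor families, searched on both strands. The ETS word, of a family that includes endothelial factors such as Erg, was AGGAAGT. The SOX word, of another family active in endothelium, was CCATTGT. The GATA word was AGATAAG, and MEF2, a factor of muscle, and the CArG box, bound by serum response factor, were searched by their degenerate consensus. The E-box searched, of the form bound by Tcf21 and other basic helix-loop-helix factors, was CAGCTG. The AP-1 word, of the Fos and Jun family, was TGACTCA or its reverse complement, and the TEAD word, of the partners of Yap, was GGAATG. A word found on the other strand is printed as its reverse complement, and no word overlaps another in the windows shown. The first set shows Plvap, whose start was listed in GFP+ nuclei alone: its promoter, a region 17101 bp upstream listed in GFP+ nuclei alone and a region in its own gene, 2224 bp downstream of the start, listed in GFP- nuclei alone.
Plvap promoter, chr8:71511753-71511952 (- strand): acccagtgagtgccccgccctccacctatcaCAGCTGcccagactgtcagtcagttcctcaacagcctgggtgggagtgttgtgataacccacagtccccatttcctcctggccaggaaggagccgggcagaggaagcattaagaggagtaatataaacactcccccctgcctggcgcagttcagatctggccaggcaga
Plvap upstream region, GFP+ alone, chr8:71528753-71528952 (- strand): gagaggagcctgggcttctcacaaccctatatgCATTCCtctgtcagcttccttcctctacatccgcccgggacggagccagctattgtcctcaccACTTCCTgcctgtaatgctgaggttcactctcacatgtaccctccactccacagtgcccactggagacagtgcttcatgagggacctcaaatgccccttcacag
Plvap intron region, GFP- alone, chr8:71509428-71509627 (- strand): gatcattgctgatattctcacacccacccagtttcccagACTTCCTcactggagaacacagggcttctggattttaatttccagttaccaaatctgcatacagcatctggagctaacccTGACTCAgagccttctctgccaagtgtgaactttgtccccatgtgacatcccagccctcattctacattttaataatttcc

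The second set shows Cav1 and Cavin2, 2 of the endothelial genes with a start peak in both populations and called differences elsewhere: the Cav1 promoter, the largest Cav1 intron peak listed in GFP+ nuclei alone, the Cav1 intron peak listed in GFP- nuclei alone, and the upstream Cavin2 region that ranked far higher in GFP+ nuclei.
Cav1 promoter, chr6:17306135-17306334 (+ strand): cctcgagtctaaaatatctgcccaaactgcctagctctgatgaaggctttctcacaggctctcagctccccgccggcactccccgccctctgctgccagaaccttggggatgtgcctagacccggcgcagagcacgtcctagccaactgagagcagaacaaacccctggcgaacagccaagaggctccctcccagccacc
Cav1 intron region, GFP+ alone, chr6:17315041-17315240 (+ strand): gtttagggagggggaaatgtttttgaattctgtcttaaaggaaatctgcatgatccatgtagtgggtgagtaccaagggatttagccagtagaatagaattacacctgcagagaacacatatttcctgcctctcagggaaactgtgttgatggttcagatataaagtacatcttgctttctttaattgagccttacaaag
Cav1 intron region, GFP- alone, chr6:17309371-17309570 (+ strand): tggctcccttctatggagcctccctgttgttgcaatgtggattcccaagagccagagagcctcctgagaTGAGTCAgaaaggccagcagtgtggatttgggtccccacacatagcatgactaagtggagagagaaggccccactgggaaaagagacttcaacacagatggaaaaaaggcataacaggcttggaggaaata
Cavin2 upstream region, higher in GFP+, chr1:51265242-51265441 (+ strand): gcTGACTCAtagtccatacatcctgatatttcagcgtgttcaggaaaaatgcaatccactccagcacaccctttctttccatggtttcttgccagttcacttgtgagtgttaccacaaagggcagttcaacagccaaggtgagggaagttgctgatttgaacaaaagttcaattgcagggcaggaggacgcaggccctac

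The third set shows the muscle paralogs, whose promoters were listed in both populations, with the intron region of Cav3 listed in GFP- nuclei alone.
Cav3 promoter, chr6:112459305-112459504 (+ strand): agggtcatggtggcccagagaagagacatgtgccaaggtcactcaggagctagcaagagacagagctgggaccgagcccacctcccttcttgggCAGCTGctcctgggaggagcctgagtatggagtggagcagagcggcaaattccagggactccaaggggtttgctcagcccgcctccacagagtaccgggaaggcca
Cav3 intron region, GFP- alone, chr6:112460453-112460652 (+ strand): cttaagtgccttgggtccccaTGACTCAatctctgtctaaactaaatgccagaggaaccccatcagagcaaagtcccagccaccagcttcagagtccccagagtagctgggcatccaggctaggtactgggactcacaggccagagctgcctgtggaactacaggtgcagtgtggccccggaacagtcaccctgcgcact
Cavin4 promoter, chr4:48663314-48663513 (+ strand): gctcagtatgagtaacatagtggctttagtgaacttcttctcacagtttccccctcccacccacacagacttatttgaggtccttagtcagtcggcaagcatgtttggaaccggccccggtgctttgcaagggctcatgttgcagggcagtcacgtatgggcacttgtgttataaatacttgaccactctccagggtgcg

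The start of every gene of the group was listed as open in endothelial nuclei, the muscle paralogs included. A start peak was present for 8 of 8 genes in GFP+ nuclei and for 7 of 8 in GFP- nuclei, where 59.8% and 61.8% of all protein-coding genes had one. Of the 8 genes, 7 had one in both lists, against 58.8% of all genes. Plvap was the exception in GFP- nuclei. Its start was also the only one of the 8 called higher in GFP+ nuclei, by 47.9 points, and 0 of the 8 were called lower. Among the 13643 genes with a start peak in either list, 1.94% were called higher in GFP+ nuclei, 7.33% were called lower, 1.46% had a start peak in GFP+ nuclei alone and 4.71% in GFP- nuclei alone. Without the threshold, 5 of the 8 starts ranked higher in GFP+ nuclei, against 28.6% of those genes. That contrast depended on the length of the lists: among the 50000 largest peaks of each, 6 of the 8 ranked higher, but so did 62.5% of all genes with a start peak.

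**Figure D1:**
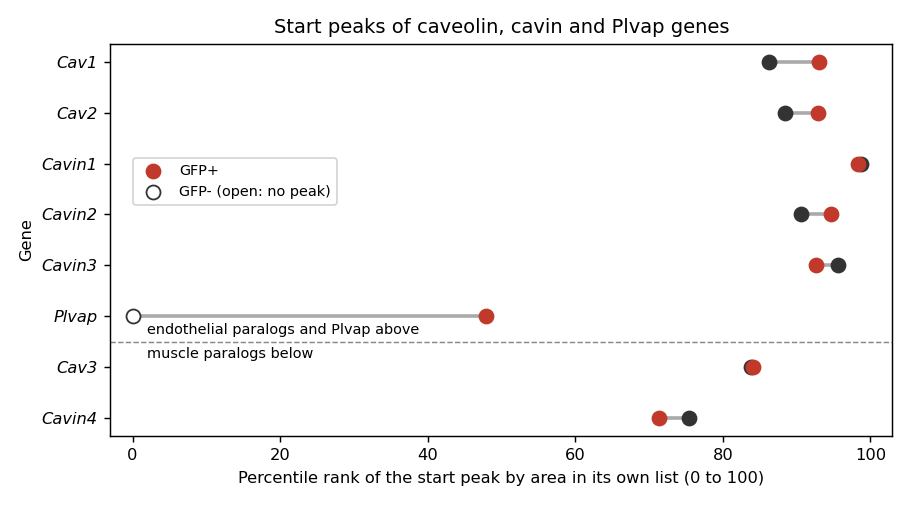
Percentile rank by area of the start peak of each gene (x axis, 0 to 100) in the GFP+ list (red) and the GFP- list (black, open circle where no peak was listed), with a grey line joining the pair. Plvap alone moves from no peak to 47.9, while Cav1 moves from 86.2 to 93.1 and Cav3 from 83.8 to 84.2.

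Cav1, the principal caveolin of non-muscle cells, lies at chr6:17306335-17341452 on the plus strand. The same peak covered all 9 annotated starts of its 10 transcripts. That peak was 2118 bp long with an area of 3179 in GFP- nuclei (rank 86.2) and 2455 bp with an area of 4794 in GFP+ nuclei (rank 93.1). It was thus among the larger peaks of both lists and ranked 6.88 points higher in endothelial nuclei, a difference larger than that of 95.4% of the genes with a start peak. Its summit lay 1298 bp downstream of the 5′ end of the gene in GFP- and 1235 bp downstream in GFP+ nuclei, inside the stretch over which the other starts are annotated.

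Cav2, the partner of Cav1 in hetero-oligomers, lies at chr6:17281185-17289115, 17219 bp upstream of Cav1 on the same strand. Its start peak measured 1811 bp in GFP- and 1908 bp in GFP+ nuclei and covered its 3 annotated starts in both. The rank went from 88.4 in GFP- to 93.0 in GFP+ nuclei, a difference of 4.54 points (percentile 94.2 of all differences). The neighbouring caveolins therefore shifted in the same direction by similar amounts, and because the genes are adjacent, their surroundings are partly the same peaks.

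Cavin1, the cavin that caveolae require in every cell type, lies at chr11:100956733-100970887 on the minus strand. Its start had the highest rank of the 8 in both populations, 98.8 in GFP- and 98.4 in GFP+ nuclei, at position 986 and 1044 from the top of the respective list. The difference of -0.36 points was near the middle of all genes (percentile 59.9). Peaks, the start peak included, took up 61.3% of the Cavin1 gene record in GFP- and 68.5% in GFP+ nuclei, second among the 8 genes to the much shorter Cavin3.

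Cavin2, a cavin prominent in endothelium, lies at chr1:51289126-51302960 on the plus strand, with 1 annotated start. Its start peak ranked 90.6 in GFP- and 94.6 in GFP+ nuclei, 4.01 points higher in the latter (percentile 93.8). Cavin3, a cavin that associates with Cavin1 at caveolae, lies at chr7:105480083-105482300 on the minus strand. It showed the opposite order, 95.6 in GFP- and 92.7 in GFP+ nuclei, a difference of -2.88 points (percentile 27.1). The GFP+ peak of Cavin3 was the longer (2730 against 2252 bp) but held the smaller area (4660 against 6459). Ranked by area per bp, Cavin3 fell from 80.2 to 51.1, a difference of -29.1 points, past the threshold.

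Plvap lies at chr8:71497765-71511752 on the minus strand, with 1 annotated start. The GFP+ list held a start peak of 561 bp at chr8:71511480-71512040 with an area of 658, at position 33851 of the list (rank 47.9), with its summit 14 bp downstream of the start. In the GFP- list the nearest peak edge was 1940 bp away, that of the intron peak at 2224 bp. The Plvap start was the lowest ranked of the 8 in both lists, and its difference exceeded that of 99.5% of genes with a start peak. The size of that difference depends on the measure. It was 26.3 points by area per bp, 21.9 by the -log10 p-value of the summit (4.26, as the caller gave it), and 17.0, under the threshold of 20, when only peaks with an area of at least 500 were ranked.

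The muscle paralogs were listed at their starts in both populations. Cav3, the caveolin of striated muscle, lies at chr6:112459505-112472872 on the plus strand. Its start peak was 691 bp long with an area of 2759 in GFP- nuclei (rank 83.8) and 528 bp with an area of 2677 in GFP+ nuclei (rank 84.2), a difference of 0.32 points (percentile 80.2). Cavin4, the muscle cavin, lies at chr4:48663514-48673502 on the plus strand. Its start peak ranked 75.4 in GFP- and 71.3 in GFP+ nuclei, a difference of -4.06 points (percentile 21.5). The GFP- peak (963 bp, area 1784) overlapped 2 GFP+ peaks, of 628 bp with an area of 1413 and of 236 bp with an area of 241. Only the first of these was ranked as the start peak. Neither Cav3 nor Cavin4 was called in either direction, so an open start of these genes did not separate the populations. Of the 10 cardiomyocyte markers, 9 likewise had start peaks in both lists, and whether any GFP+ nuclei of muscle origin account for this was not tested.

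Area grows with the length of a peak, and the muscle start peaks were short, so the genes were also ordered by area per bp. On that scale Cav3 had the highest start rank of the 8 in both populations, 93.4 in GFP- and 98.5 in GFP+ nuclei, with 3.99 and 5.07 units of area per bp. Cavin1 came next, at 89.6 and 89.3. The long Cav1 peak ranked 40.2 in GFP- nuclei and 19.8 points higher in GFP+ nuclei, just under the threshold. Cavin4 stood at 54.3 and 68.6, so that its order between the populations was the reverse of that by area. Over all genes with a start peak, the median difference by area per bp was -1.63.

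Taking the groups as a whole, the median start difference was 4.28 points for the 6 endothelial genes and -1.87 for the 2 muscle genes, against -0.81 for all genes with a start peak (5th to 95th percentile -30.2 to 5.97). Of the 6 endothelial genes, 4 ranked higher in GFP+ nuclei and 2, Cavin1 and Cavin3, lower, so the group name does not describe each gene. The adjacent Cav1 and Cav2 were counted separately. The endothelial median stayed above 0 under every ranking tried, between 4.28 and 11.9. The muscle median did not keep its sign. It was 9.71 by area per bp and 3.24 among the 50000 largest peaks of each list, where the median of all genes was also above 0, at 0.54. Apart from Plvap, each of the 8 genes differed by less than the smallest difference among the 10 endothelial markers, 7.39 points for Esam.

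**Figure D2:**
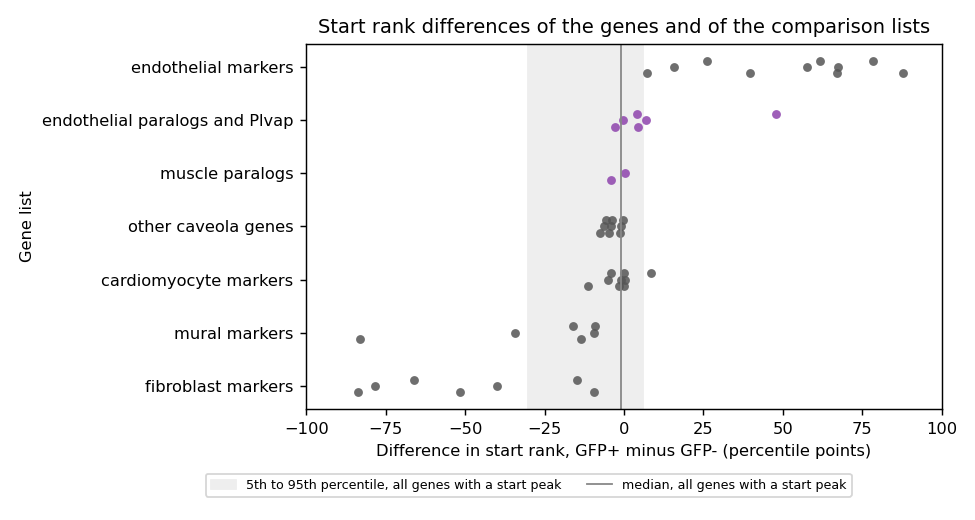
Difference in start rank, GFP+ minus GFP- in percentile points (x axis), for each gene with a start peak in either list, by gene list, with the median of all genes (grey line, -0.81) and their 5th to 95th percentile (grey band, -30.2 to 5.97). The endothelial markers spread from 7.39 to 87.9, whereas the caveolins and cavins lie between -4.06 and 6.88 and Plvap at 47.9.

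Of 10 other genes associated with caveolae or lipid rafts (the Ehd, Pacsin and Flot families and Ror1), 9 had a start peak in each list, 9 of those ranked lower in GFP+ nuclei, and 0 were called in either direction, with a median difference of -4.16. A lower rank in GFP+ nuclei was the common state in the full lists, where 28.6% of all genes with a start peak ranked higher. Among the 50000 largest peaks of each list, 62.5% of all genes ranked higher. The other caveola genes were not examined under that setting. Ehd2, the ATPase that sits at the caveola neck, had a start rank of 81.9 in GFP- and 75.6 in GFP+ nuclei. Pacsin3, a membrane-bending protein of muscle caveolae, stood at 96.0 and 91.9. Pacsin1, a neuronal form, had no start peak in either list.

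Within the gene records and 50 kb on either side there were 152 distinct peaks, counted by summit, with each peak counted once. Of the 66 GFP+ peaks around the endothelial genes, 51 (77.3%, Wilson 95% interval 65.8 to 85.7) shared 1 bp or more with a GFP- peak, where 87.3% of the GFP+ peaks within 50 kb of any protein-coding gene did. The 15 without a partner were unevenly spread. They were 6 of the 12 peaks around Cav1, 4 of 21 around Plvap, 2 of 15 around Cavin1, 2 of 10 around Cavin2 and 1 of 8 around Cavin3. Those around Cav2 were among the Cav1 peaks. Of the 63 GFP- peaks, 54 (85.7%, 75.0 to 92.3) overlapped a GFP+ peak, where 71.8% did near all protein-coding genes. Neither share held the same distance from all peaks under other settings. For GFP+ peaks, 37 of 52 (71.2%) were shared among the 50000 largest of each list, against 79.6% of all such peaks, but 35 of 40 (87.5%) were shared at an area of at least 500, against 88.8%. For GFP- peaks, an overlap of 50% of both peaks gave 60.3%, against 60.7% of all GFP- peaks. The GFP- share remained the higher at an area of at least 500 (82.2% against 69.2%). It was also higher among the 50000 largest peaks (86.7% against 77.5%). The reference in these other settings was all peaks of a list. In the main setting, 86.6% of all GFP+ and 69.7% of all GFP- peaks were shared. Intervals cover counting error only, and neighbouring peaks are not independent.

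Around the muscle genes, 11 of 11 GFP+ peaks were shared (100%, interval 74.1 to 100), and so were 10 of 12 GFP- peaks (83.3%, 55.2 to 95.3). Near all protein-coding genes, 87.3% of GFP+ and 71.8% of GFP- peaks were shared, and both shares lie inside these intervals. Apart from the Cavin4 start peak itself, whose summit lay 34 bp upstream of the 5′ end in GFP- and 58 bp upstream in GFP+ nuclei, neither list held a peak with its summit in the 50 kb upstream of Cav3 or Cavin4. With so few peaks the intervals of the groups overlap.

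**Figure D3:**
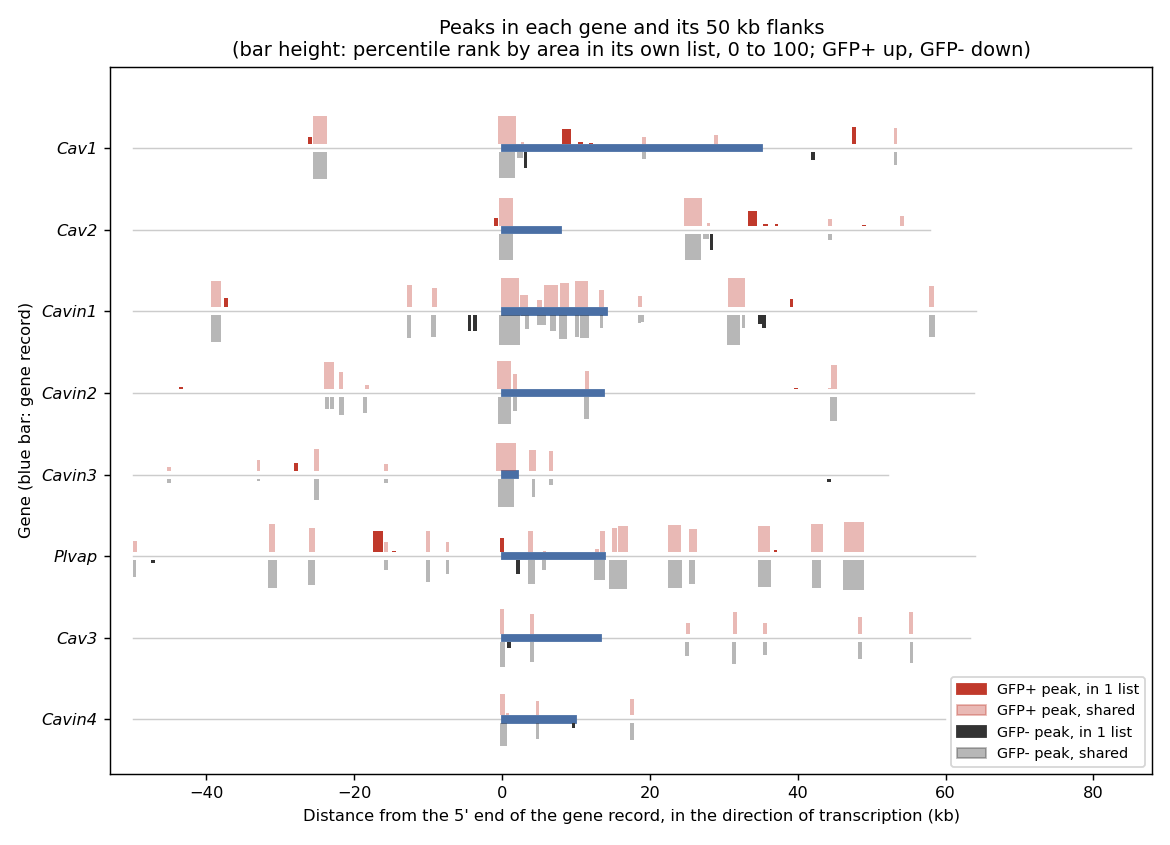
Peaks by distance from the 5′ end of each gene in the direction of transcription (x axis, kb), drawn up for GFP+ and down for GFP-, with height proportional to percentile rank by area and full colour for peaks in 1 list alone. Cav1 and Plvap carry several full red bars, the highest at rank 70.8 upstream of Plvap. The muscle genes Cav3 and Cavin4, with 11 GFP+ peaks between them, carry none.

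When overlapping peaks of the lists were merged into regions, the endothelial genes had 70, of which 46 were in both lists, 15 in the GFP+ list alone and 9 in the GFP- list alone. The muscle genes had 12, of which 10 were in both, 0 in GFP+ alone and 2 in GFP- alone. Over the genome, 10.1% of regions were in the GFP+ list alone and 27.6% in the GFP- list alone. By the highest rank in each list, 13 of the 70 endothelial regions were higher in GFP+ by more than 20 points and 9 lower, and 0 and 1 of the 12 muscle regions, where 7.63% of all regions were higher and 23.8% lower. A region that a list held as several peaks was thus ranked by the largest of them alone. Without the threshold, 37 of the 70 endothelial and 3 of the 12 muscle regions ranked higher in GFP+ nuclei, against 32.1% of all regions. The median difference was 0.67 points for the endothelial regions, -3.28 for the muscle regions and -3.91 for all regions. Many of the regions in GFP+ alone were small: 7 of the 15 ranked under 10 and 3 over 50, with a median rank of 24.6 (17.4 for all such peaks in the genome).

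**Figure D4:**
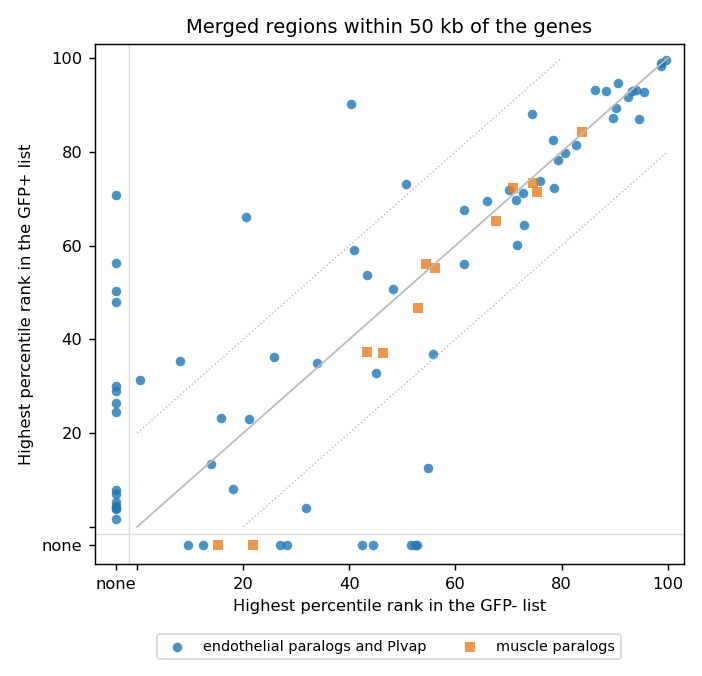
Highest percentile rank by area of each merged region in the GFP- list (x axis) and the GFP+ list (y axis), with "none" for a region missing from a list, and dotted lines at differences of 20 points. The 12 muscle regions (squares) lie along the diagonal or on the lower edge, while 15 endothelial regions (circles) lie on the left edge, at ranks of 1.62 to 70.8.

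Cav1 was the gene with the most intronic peaks of its own in endothelial nuclei. It had 7 intron peaks in GFP+ nuclei, 4 of them without a GFP- partner, and 4 in GFP- nuclei, 1 of them without a GFP+ partner. The largest of the former was 1111 bp long, at chr6:17314506-17315616 with its summit 8806 bp downstream of the gene's 5′ end, at rank 50.2. The other 3 ranked 7.05, 4.09 and 1.62, near the floor of the list. A further region, 28944 bp downstream, was at the floor in GFP- nuclei (rank 0.53) and at 31.3 in GFP+ nuclei. In the other direction, the region at 3136 bp was at rank 52.7 in GFP- nuclei and unlisted in GFP+ nuclei, so the intron regions of Cav1 differed in both directions.

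Beyond the end of Cav1, a peak 47681 bp from its start was in the GFP+ list alone, at rank 56.3, and one at 41876 bp in the GFP- list alone, at rank 26.8. The most distant region, at 53080 bp, was in both, at 43.4 in GFP- and 53.7 in GFP+ nuclei. The 50 kb flank of Cav2 takes in the Cav1 start and introns. Apart from its start peak, the region nearest to the Cav2 start was a peak 814 bp upstream, in GFP+ nuclei alone at rank 24.6. That peak also lies in the upstream flank of Cav1, 25964 bp from the Cav1 start. In all, 6 of the 12 GFP+ peaks around Cav1 and 5 of the 10 around Cav2 had no GFP- partner, the same 5 peaks being counted for both genes where their flanks overlap. Near all protein-coding genes, 87.3% of GFP+ peaks had a GFP- partner.

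Cavin1 combined a start of equal rank with intron regions whose highest-ranked peak stood higher in endothelial nuclei. The intron region at 6997 bp stood at 50.7 in GFP- and 73.1 in GFP+ nuclei, a called difference. Those at 10146 bp (74.4 and 88.1) and 8307 bp (78.4 and 82.5) differed in the same direction by less than 20 points, as did the exon region at 13463 bp (40.9 and 59.0). The region at 10146 bp was 2 GFP- peaks, with areas of 1703 and 1478, against 1 GFP+ peak of 3429. That at 6997 bp was 2 peaks in each list, with areas of 762 and 473 in GFP- and 1516 and 355 in GFP+ nuclei. Smaller intron peaks near 4957 bp (32.7 in GFP- and 23.1 in GFP+) and 3376 bp (44.8 and 42.3) ranked lower in GFP+ nuclei. Upstream, regions differed in both directions. Peaks 3694 and 4483 bp upstream were in the GFP- list alone, at ranks 51.6 and 52.3, a shared region 9179 bp upstream ranked 72.9 in GFP- and 64.3 in GFP+ nuclei, and a peak 37369 bp upstream was in the GFP+ list alone, at rank 30.1. The neighbouring start of Stat3, in the downstream flank, was open to the same degree in both (98.7 and 99.0).

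Cavin2 had the largest called shift of a shared region. At 23784 bp upstream, chr1:51265051-51266349, the GFP+ list held a peak of 1299 bp with an area of 3950 (rank 90.3), where the GFP- list held a pair of peaks with areas of 556 and 575 (ranks 39.0 and 40.3). That region ranked close to the Cavin2 start itself in endothelial nuclei. The next region, 21702 bp upstream, was slightly lower in GFP+ nuclei (61.6 in GFP- and 56.1 in GFP+), and the one at 18351 bp was called lower (54.8 and 12.5). Inside the gene, the intron region at 11316 bp ranked 71.7 in GFP- and 60.1 in GFP+ nuclei. All 9 GFP- peaks around Cavin2 overlapped a GFP+ peak, and 8 of the 10 GFP+ peaks overlapped a GFP- peak (71.8% and 87.3% near all protein-coding genes).

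Cavin3, whose start ranked lower in GFP+ nuclei, had regions nearby that ranked higher. The region 6570 bp from its start, beyond the end of the gene, stood at 20.5 in GFP- and 66.1 in GFP+ nuclei, and that 33054 bp upstream at 8.02 and 35.4, both called. The region at 4267 bp was close to equal (61.7 and 67.5), and so was that 24878 bp upstream (70.1 and 71.9). Peaks covered 73.7% of this short gene in GFP- and 86.0% in GFP+ nuclei, all of it by the start peak.

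Plvap lies among several genes with open starts. Of its 21 GFP+ and 17 GFP- peaks, 17 and 15 were shared (87.3% and 71.8% near all protein-coding genes). The strongest region in GFP+ alone was 1252 bp long, at chr8:71527901-71529152, 17101 bp upstream, with an area of 1385 and a rank of 70.8. It ranked above the Plvap start itself. Within the gene, an exon region 3911 bp downstream of the start ranked 78.6 in GFP- and 72.2 in GFP+ nuclei, an intron region at 5528 bp 31.8 and 3.89, and the intron region at 2224 bp was in GFP- nuclei alone, at 44.5. Peaks covered 23.4% of the Plvap gene record in GFP- and 16.3% in GFP+ nuclei. Of these 3275 and 2274 covered bp, 1524 in GFP- and 1201 in GFP+ nuclei belonged to a region with its summit also inside Gtpbp3. The GFP+ list as a whole was also the smaller, at 41.8 against 52.1 Mb. With the 50 kb flanks, coverage was 15.9% in GFP- and 16.3% in GFP+ nuclei. The start peak and the coverage thus differed in opposite directions for the gene record alone. The starts of the neighbours, such as Bst2 (82.8 and 81.4) and Mvb12a (94.0 and 93.2), were near equal.

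Cav3 and Cavin4 had few regions, and these mostly had similar ranks in both lists. In Cav3, the intron region at 4079 bp stood at 67.7 in GFP- and 65.2 in GFP+ nuclei, and 5 regions downstream at 25007 to 55271 bp differed by less than 10 points each. The intron region at 1048 bp, in GFP- alone at rank 21.8, was the only called one. In Cavin4, the intron region at 4650 bp stood at 52.9 in GFP- and 46.6 in GFP+ nuclei and the downstream region at 17635 bp at 54.4 and 56.0. The exon region at 9603 bp was in GFP- alone, at rank 15.3. Coverage of the gene records was lower in GFP+ nuclei for both, 6.96% against 11.5% for Cav3 and 8.56% against 12.8% for Cavin4. The GFP+ list as a whole was also the smaller, at 41.8 against 52.1 Mb. As a percentile over all protein-coding genes, coverage of the record with its 50 kb flanks was 49.8 in GFP+ and 53.2 in GFP- nuclei for Cav3. For Cavin4 it was 34.3 and 34.7.

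The words were counted in 200 bp around each summit. Among the 15 endothelial regions in GFP+ alone, 4 held the ETS word, 6 the TEAD word, 3 the E-box and 1 the AP-1 word. Among the 9 in GFP- alone, 4 held the AP-1 word, 5 the E-box, 1 the ETS word and 0 the TEAD word. The SOX, GATA and MEF2 words were each in 0 of the 15 (5.86%, 3.86% and 4.30% of all GFP+ peaks without a partner). They were in 0, 0 and 1 of the 9 (2.01%, 3.32% and 3.23% of all GFP- peaks without a partner). Of all GFP+ peaks without a partner in the genome, 14.0% held the ETS word, 13.1% the TEAD word, 16.3% the E-box and 6.24% the AP-1 word. Of all GFP- peaks without a partner, 11.6% held the AP-1 word, 28.6% the E-box, 7.91% the ETS word and 15.8% the TEAD word, so that the TEAD word was the more frequent in GFP- peaks there, unlike in the endothelial regions. Both muscle regions in GFP- alone, 2 of 2, held the AP-1 word. The 46 endothelial regions in both lists held the ETS word in 4, the AP-1 word in 5 and the TEAD word in 9, where 6.55%, 5.83% and 12.6% of all shared GFP+ peaks did. The CArG box was found in 0 of the 82 regions, with about 1.08% of all GFP+ peaks holding it. These are matches of letters, not sites, and with these counts the shares were not tested.

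In the printed windows, the Plvap upstream region held an ETS and a TEAD word, while the Plvap promoter held an E-box alone, as did the Cav3 promoter (9.91% of all promoters of 200 bp hold it). The Plvap intron region in GFP- alone held an ETS and an AP-1 word, and AP-1 words were also in the GFP- regions of Cav1 and Cav3 and, on the other side, in the Cavin2 region that ranked higher in GFP+ nuclei. The Cav1 promoter, the Cav1 intron region in GFP+ alone and the Cavin4 promoter held none of the 8 words. Of the remaining promoters, that of Cav2 held an AP-1 word and that of Cavin3 a TEAD word (3.17% and 9.14% of all promoters). Around the summit of its start peak, Cav3 held a MEF2 and a TEAD word and Cavin2 an ETS and a TEAD word.

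Genes of similar pattern were sought by distance in 4 percentiles over all 21755 genes, the start rank and the share of the gene record with its flanks covered by peaks, in each of the 2 lists. The nearest to Cav1 was Cav2 (distance 6.16), followed by Fuca2 (7.70), but part of that likeness comes from shared peaks. The nearest to Plvap were Gm4969 (1.11) and Exoc3l (2.32), which also lacked a start peak in GFP- nuclei and had one in GFP+ nuclei, at ranks 42.9 and 59.5. The nearest to Cav3 were Trim62 (1.68) and Ube2a (2.31), and to Cavin4 Arhgef4 (1.35) and Zfp280c (1.57). Cavin1 was closest to Sptbn4 (0.68) and Aamp (0.80), Cavin2 to 4931406P16Rik (4.89) and St3gal6 (5.33), Cavin3 to Xxylt1 (3.10) and March6 (4.15), and Cav2 to Hlx (5.70) and Rapgef1 (6.13).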

How the data were processed

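Nuclei of 4 samples (2 GFP+, 2 GFP-) were assayed by ATAC-Seq. After trimming by fastp, the authors aligned reads to mm10 using Bowtie2 (version 2.3.5.1 in the submitters' processing notes), filtered alignments with SAMtools (1.19 in those notes), removed duplicates with Picard and downsampled the libraries. Genrich, run by the authors in its ATAC mode, made 1 list from both replicates of a population, without mitochondrial, Y or blacklisted sequence. The deposited area is a signal summed over the peak by the authors' caller, the deposited -log10 p-value refers to the summit, and the deposited score, capped at 1000 by the authors' caller in 83.9% of GFP- and 82.0% of GFP+ peaks, was read only for that count. The depth that each library kept after downsampling is unknown from these lists. Why the lists differ in their number of peaks was not tested.

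From these, percentile ranks, overlaps (at least 1 bp), merged regions, coverage, nearest patterns (Euclidean distance) and word counts were computed with Python 3.11.15, numpy 2.4.6, pandas 2.3.3, scipy 1.17.1 (Wilson intervals), pysam 0.24.0 and matplotlib 3.10.9. Genes, transcripts and starts came from GENCODE vM21 (GRCm38). Peaks on other scaffolds (50 GFP-, 48 GFP+) were ranked but not annotated. In simulated data, with 1500 peaks for the overlaps, the overlap, coverage, rank and start steps differed from direct computation in 0 cases. The merging of regions, nearest patterns and word counts were not checked in this way. The genes, groups, lists, words, threshold and alternatives were chosen with earlier results of these data known. The merged regions, the printed sequences, the ranks per population under other measures and the shares of all peaks under other settings were added after the values had been seen. The named genes were all 8, Ehd2 and Pacsin3 of the other caveola genes, those with a start in a described flank peak, and the 2 most similar genes for each.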

Additional observations from a re-analysis of the deposited data

How the results depend on the processing

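No paired analysis was possible because each list was called from both replicates of a population together, and leaving out a replicate could not be run for the same reason. The counts of start peaks, 8 in GFP+ and 7 in GFP- nuclei, stayed the same with a start window of 1000 bp, with only the 5′ end of the gene record, with the 50000 largest peaks of each list and with an area of at least 500. The muscle median of -1.87 points changed sign, to 9.71 by area per bp and 3.24 among the 50000 largest peaks (all genes 0.54), and was between -4.21 and -0.870 otherwise. The endothelial median stayed positive, from 4.28 to 11.9, so its size depends on the measure. Requiring an overlap of 50% of both peaks lowered the shared share around the endothelial genes to 57.6% for GFP+ and 60.3% for GFP- peaks (all peaks 73.7% and 60.7%), and an area of at least 500 raised that for GFP+ peaks to 87.5%. Among the 50000 largest peaks, the GFP- share around the muscle genes was 100% (10 of 10). Of single genes, Plvap went from 47.9 points to 17.0 (area of at least 500), by area per bp Cav1 from 6.88 to 19.8, Cav2 from 4.54 to 13.6, Cavin2 from 4.01 to 10.2 and Cavin3 from -2.88 to -29.1, Cavin4 from -4.06 to 14.3 (area per bp) and 1.57 (50000 largest), and Cav3 from 0.32 to -0.47 (area of at least 500). The cause of each was not tested. Areas without read counts limit the precision, which is unknown here.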
